A study of Mus musculus with 15 samples.

Results

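The arrays described here are the 8 TER119 negative arrays of the study's 15, divided by their reading for Alb, the gene for albumin, the main plasma protein made by liver cells. Alb read above 10 on the log2 scale on 4 arrays, called albumin-high here: KO-labelled replicate 4 and WT replicates 2, 3 and 4. It read below 10 on the other 4, called albumin-low: KO-labelled replicates 1, 2 and 3 and WT replicate 1. The groups were thus chosen by the measured Alb values, not from a label, so differences between albumin-high and albumin-low arrays are given as descriptions without a test. Genotype was uneven across it, with 1 KO-labelled and 3 WT arrays in the high group and 3 KO-labelled and 1 WT arrays in the low group.

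The study set Klf3 knockout (KO) against wild-type (WT) FVB/NJ mice in fetal liver at embryonic stage E14.5. KLF3 is a DNA-binding repressor of the Krüppel-like factor family, and the labels do not state which part of its gene is missing. Magnetic beads against TER119, a surface antigen of maturing red cell precursors, divided each liver suspension: TER119 negative cells (4 KO, 4 WT) were what column depletion left behind, and TER119 positive cells (3 KO, 4 WT) were retained on a second kind of column. The labels do not say whether replicates came from separate embryos, so p-values reflect only how these samples vary, and part of that variation may be technical.

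At this stage of gestation the liver is the main site of blood formation. Hepatoblasts, the precursors of hepatocytes and bile duct cells, lie among sheets of red cell precursors and already secrete albumin, alpha-fetoprotein, apolipoproteins and clotting factors. These genes share a small set of liver transcription factors, among them HNF1, HNF4A, FOXA and C/EBP proteins. Bulk RNA from such tissue mixes cell types, and in bulk samples fewer cells of a type and less RNA per cell cannot be told apart.

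The Klf3 probe set did not separate the genotypes. It read 8.02, 8.49, 8.74 and 8.09 on KO-labelled replicates 1 to 4 and 8.80, 8.22, 8.55 and 7.94 on WT replicates 1 to 4, a KO minus WT difference of -0.04 (limma, Benjamini-Hochberg adjusted p = 0.947), and the arrays are therefore called KO-labelled. The sorted fractions matched their labels on the late erythroid list, whose mean lay between 7.85 and 8.76 on TER119 negative arrays and between 11.26 and 11.44 on TER119 positive arrays. On the first principal component of the TER119 negative arrays, which held 54.2% of the variance, KO-labelled replicate 4 (18.8) and WT replicates 2 (25.9) and 4 (45.3) stood apart from the other 5 arrays (between -25.4 and -9.35). WT replicate 3, albumin-high by its Alb reading, stood with the albumin-low arrays at -17.9. On the second component (15.3%) WT replicate 3 (-21.3) and KO-labelled replicate 1 (-19.6) lay below the others (between -3.88 and 17.1). Both arrays also had lower medians over all probe sets (5.28 each) than the rest. Xist and Y-linked genes gave 1 female and 3 male arrays in the high group and 2 of each in the low group. By genotype label, every WT TER119 negative array read as male, while KO-labelled replicates 1, 3 and 4 read as female and replicate 2 as male. Genotype and sex were thus nearly confounded.

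The promoters of Alb, its neighbour Afp (alpha-fetoprotein, the fetal counterpart of albumin) and the fibrinogen genes Fga and Fgb are shown. These liver genes were among those that differed most between the albumin-high and albumin-low arrays, and their promoters hold the motif marked below. Fgg, Apoa2, Ttr and Serpina6 differed more than these 4 and are not shown. The promoters of the embryonic globins Hbb-y and Hba-x are shown because both were among the 12 largest positive differences without overlap. Each is the 250 bases before the RefSeq start site, from assembly GRCm38.p6, written 5′ to 3′ on the gene's strand. Alb lies at chr5:90460620-90460869 on the plus strand, Afp at chr5:90490464-90490713 on the plus strand, Fga at chr3:83025903-83026152 on the plus strand and Fgb at chr3:83049864-83050113 on the minus strand. Hbb-y lies at chr7:103853208-103853457 on the minus strand and Hba-x at chr11:32276350-32276599 on the plus strand. Capitals mark GTTAAT or its reverse complement ATTAAC, a half-site of the HNF1 motif, in the 4 liver genes, and CACCC or its reverse complement GGGTG, the box bound by Krüppel-like factors, in the globins.
Alb: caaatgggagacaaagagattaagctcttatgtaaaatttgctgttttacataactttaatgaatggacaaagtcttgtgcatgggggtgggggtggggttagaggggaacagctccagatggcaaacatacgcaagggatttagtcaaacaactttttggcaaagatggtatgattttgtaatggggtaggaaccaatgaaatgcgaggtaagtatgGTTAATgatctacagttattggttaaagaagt
Afp: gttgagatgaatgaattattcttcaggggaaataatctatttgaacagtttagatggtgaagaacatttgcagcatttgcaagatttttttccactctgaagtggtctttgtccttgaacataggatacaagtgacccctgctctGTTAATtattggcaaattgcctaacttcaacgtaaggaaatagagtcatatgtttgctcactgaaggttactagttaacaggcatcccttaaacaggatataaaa
Fga: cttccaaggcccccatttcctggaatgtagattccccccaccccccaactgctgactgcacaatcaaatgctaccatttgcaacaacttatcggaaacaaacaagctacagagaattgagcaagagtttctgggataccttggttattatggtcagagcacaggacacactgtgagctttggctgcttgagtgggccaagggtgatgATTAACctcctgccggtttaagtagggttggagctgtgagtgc
Fgb: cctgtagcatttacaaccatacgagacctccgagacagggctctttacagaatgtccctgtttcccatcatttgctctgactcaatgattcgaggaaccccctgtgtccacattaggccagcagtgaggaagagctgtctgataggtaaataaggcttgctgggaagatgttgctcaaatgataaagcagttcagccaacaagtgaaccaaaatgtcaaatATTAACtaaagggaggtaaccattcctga
Hbb-y: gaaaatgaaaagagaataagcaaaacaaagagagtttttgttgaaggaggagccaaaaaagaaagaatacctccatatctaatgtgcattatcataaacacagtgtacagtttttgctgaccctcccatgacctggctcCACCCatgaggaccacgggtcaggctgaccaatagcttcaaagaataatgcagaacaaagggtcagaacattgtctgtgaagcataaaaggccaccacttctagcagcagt
Hba-x: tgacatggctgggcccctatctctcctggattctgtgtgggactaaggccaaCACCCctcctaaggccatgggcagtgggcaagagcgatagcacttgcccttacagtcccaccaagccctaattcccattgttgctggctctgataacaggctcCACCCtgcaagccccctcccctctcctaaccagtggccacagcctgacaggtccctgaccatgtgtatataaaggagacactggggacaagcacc

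The HNF1 half-site began 32 bases before the start of Alb, 105 before that of Afp, 43 before that of Fga and 29 before that of Fgb. Over windows from 250 bases before to 50 after the start, searched on both strands, GTTAAT was present in 7.1% of all 32851 promoters and in 26 of the 125 promoters of the hepatocyte lists (20.8%). It was present in 0 of the 27 promoters of the late erythroid list. Of the 10 genes with a promoter among the 12 largest positive differences without overlap, 4 held it, namely the 4 liver genes shown. CACCC occurred once before Hbb-y, starting 111 bases upstream, and at 2 places before Hba-x, starting 198 and 95 bases upstream. It is a short motif that 57.5% of all promoters hold, against 69.6% of the hepatocyte and 81.5% of the late erythroid promoters. A match describes the letters of the window and is not evidence that a factor is bound there.

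Values over the 8 arrays are log2 expression and follow 1 order: KO-labelled replicates 1, 2 and 3 and WT replicate 1 for the albumin-low arrays, then KO-labelled replicate 4 and WT replicates 2, 3 and 4 for the albumin-high arrays. Alb itself read 9.57, 8.74, 8.37 and 8.66 on the low arrays against 10.35, 10.42, 10.80 and 11.35 on the high arrays. The means were 8.84 ± 0.51 and 10.73 ± 0.46 (SD, n = 4 each), a difference of 1.89, or 3.72-fold. The array just inside the high group was KO-labelled replicate 4 (10.35) and the one just outside it was KO-labelled replicate 1 (9.57), 0.780 apart. Within WT the difference was 2.19 and within KO-labelled arrays 1.45. On the TER119 positive arrays Alb read between 13.48 and 13.70, above all 8 negative arrays.

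**Figure D1:**
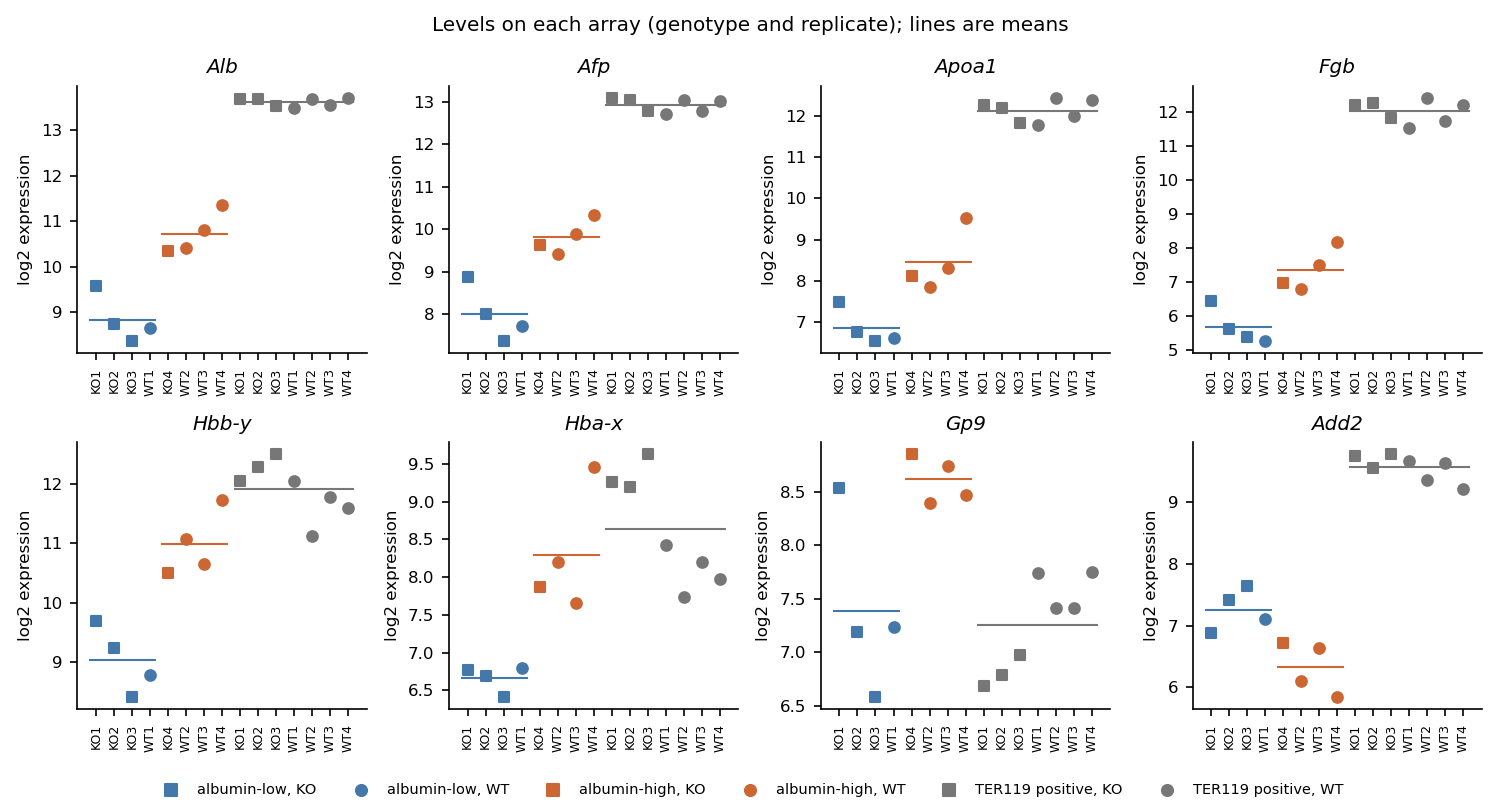
Log2 expression of 8 genes (vertical axes) on each array (horizontal axis, genotype and replicate), with 4 albumin-low, 4 albumin-high and 7 TER119 positive arrays and a line at each group's mean; squares are KO-labelled and circles WT. Alb, Afp, Apoa1, Fgb, Hbb-y and Hba-x are higher on all 4 albumin-high than on all 4 albumin-low arrays, Gp9 is as high on KO-labelled replicate 1 (8.53) as on the albumin-high arrays, and Add2 is lower on the albumin-high arrays.

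Over 19938 genes, 48 (0.241%) were on average at least 2-fold higher on the albumin-high arrays and 7 (0.0351%) at least 2-fold lower. Of the 48 higher genes, 19 were on the hepatocyte lists, 5 on the megakaryocyte list, 3 were embryonic globins and 2 were Y-linked. Of all 19938 genes, the hepatocyte lists held 128 and the megakaryocyte list 14. Higher genes on no list, such as Vtn (1.24), Alox12 (1.21) and Myl9 (1.52), were not counted under a cell type. The 7 lower genes were Sidt2 (-1.50), Xist (-1.43), Snord15b (-1.18), Scd1 (-1.18), Eid3 (-1.13), Snord35a (-1.08) and Cecr2 (-1.07), of which Xist marks female arrays and Sidt2 also differed by genotype label. The counts moved with single arrays. Without KO-labelled replicate 1 they were 93 higher and 31 lower, and without KO-labelled replicate 3 they were 30 and 4. The number lower was 17 without WT replicate 1, 21 without KO-labelled replicate 4, 93 without WT replicate 3 and 4 without WT replicate 4. On 583 genes (2.92%) every albumin-high array lay above every albumin-low array, and on 541 (2.71%) every one lay below. Among the genes that were 2-fold higher with no overlap, 17 of 23 were on the hepatocyte lists.

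Genes of the 7 hepatocyte lists were higher on the albumin-high arrays in most cases. Of 145 listed genes 128 had a probe set with 1 gene name, and 113 of these had a positive difference, with a median of 0.25 against 0.04 over all genes. There was no overlap between the groups, with the albumin-high arrays higher, for 39 of the 128, and 0 lay wholly below. Over all genes these shares were 2.92% and 2.71%. The mean over the 128 genes ran from 5.15 to 5.45 on the low arrays, from 5.57 to 5.93 on the high arrays and from 7.42 to 8.13 on TER119 positive arrays. Most of these genes were dim: 107 of 128 averaged under 6 on the low arrays and 91 on the high arrays, in the range where differences are compressed. Because Alb chose the groups, these counts describe the division and do not test it.

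Plasma carrier and binding proteins had a median difference of 0.56 over 21 genes, which was 0.45 within WT and 0.36 within KO-labelled arrays, and 10 of them were 2-fold higher. Afp read 8.88, 8.01, 7.38 and 7.72 on the low arrays against 9.62, 9.42, 9.90 and 10.34 on the high arrays, 3.54-fold apart. Ttr, which carries thyroid hormone and retinol-binding protein, read 7.17, 6.18, 5.70 and 6.30 against 8.01, 8.20, 8.31 and 9.23. Serpina6, the corticosteroid-binding globulin, read 9.76, 8.64, 8.27 and 8.40 against 10.67, 10.12, 10.91 and 11.33. In each the groups did not overlap and KO-labelled replicate 1 was the highest low array. Orm2, an acute-phase plasma protein, was the exception in the list, with a difference of -0.65.

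Apolipoproteins, which package lipid for export, had a median difference of 0.34 over 14 genes, 5 of them 2-fold higher. Apoa1, the main protein of high-density lipoprotein, read 7.49, 6.76, 6.55 and 6.61 on the low arrays against 8.13, 7.86, 8.31 and 9.52 on the high arrays. Apoa2 read 6.82, 5.84, 5.37 and 5.45 against 7.55, 7.42, 7.66 and 9.37. WT replicate 4 was the highest array for both, and neither gene's groups overlapped. Apoh, a phospholipid-binding plasma protein, was 1.60 higher on average but its groups overlapped, since KO-labelled replicate 1 (6.47) lay above KO-labelled replicate 4 (6.10) and WT replicate 2 (6.17).

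Coagulation proteins had a median difference of 0.49 over 20 genes, all positive, which was 0.62 within WT and 0.42 within KO-labelled arrays. The 3 fibrinogen chains, which thrombin turns into clot, were the most different of them. Fga read 5.60, 5.01, 4.69 and 5.04 against 6.58, 6.22, 7.10 and 7.61. Fgb read 6.43, 5.59, 5.38 and 5.26 against 6.94, 6.77, 7.48 and 8.17. Fgg read 6.56, 5.56, 5.09 and 5.27 against 7.19, 7.19, 7.64 and 8.98. KO-labelled replicate 1 was again the highest low array and WT replicate 4 the highest of all, with no overlap.

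Lists of dimmer liver genes differed less. Complement proteins had a median of 0.25 over 13 genes, with Cfi (0.68), C8b (0.62) and Mbl2 (0.45) foremost. Hepatocyte metabolism had a median of 0.24 over 23 genes. Its urea cycle genes Otc (4.05, 4.07, 3.97 and 4.15 against 4.55, 4.83, 4.74 and 5.19) and Cps1 (4.49, 4.49, 4.39 and 4.56 against 4.96, 5.02, 4.96 and 5.58) did not overlap, at levels close to the bottom of the scale. Transcription factors had a median of 0.11 over 17 genes. Of these 4 (Foxa1, Prox1, Nr1i2 and Nr1i3) were higher without overlap, against 2.92% of all genes. Hnf4a, the nuclear receptor central to hepatocyte identity, lay between 5.11 and 5.30 on the low arrays and between 5.22 and 5.53 on the high arrays, which overlap. Hepatoblast surface, adhesion and growth genes had a median of 0.23 over 20 genes, with Dlk1, a hepatoblast surface protein, at 5.54 to 5.71 on the low arrays and 5.49 to 6.25 on the high arrays.

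Arrays were not alike within a group. Of the 127 hepatocyte genes other than Alb, 77 were highest on WT replicate 4 among the albumin-high arrays, 25 on WT replicate 2, 16 on WT replicate 3 and 9 on KO-labelled replicate 4. Among the albumin-low arrays, 57 were highest on KO-labelled replicate 1, and 53 were lowest on KO-labelled replicate 3. The mean over all 128 genes, Alb included, ran from 5.93 on WT replicate 4 to 5.15 on KO-labelled replicate 3, in the order of Alb except that WT replicate 1 (5.26) and KO-labelled replicate 2 (5.21) changed places.

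**Figure D2:**
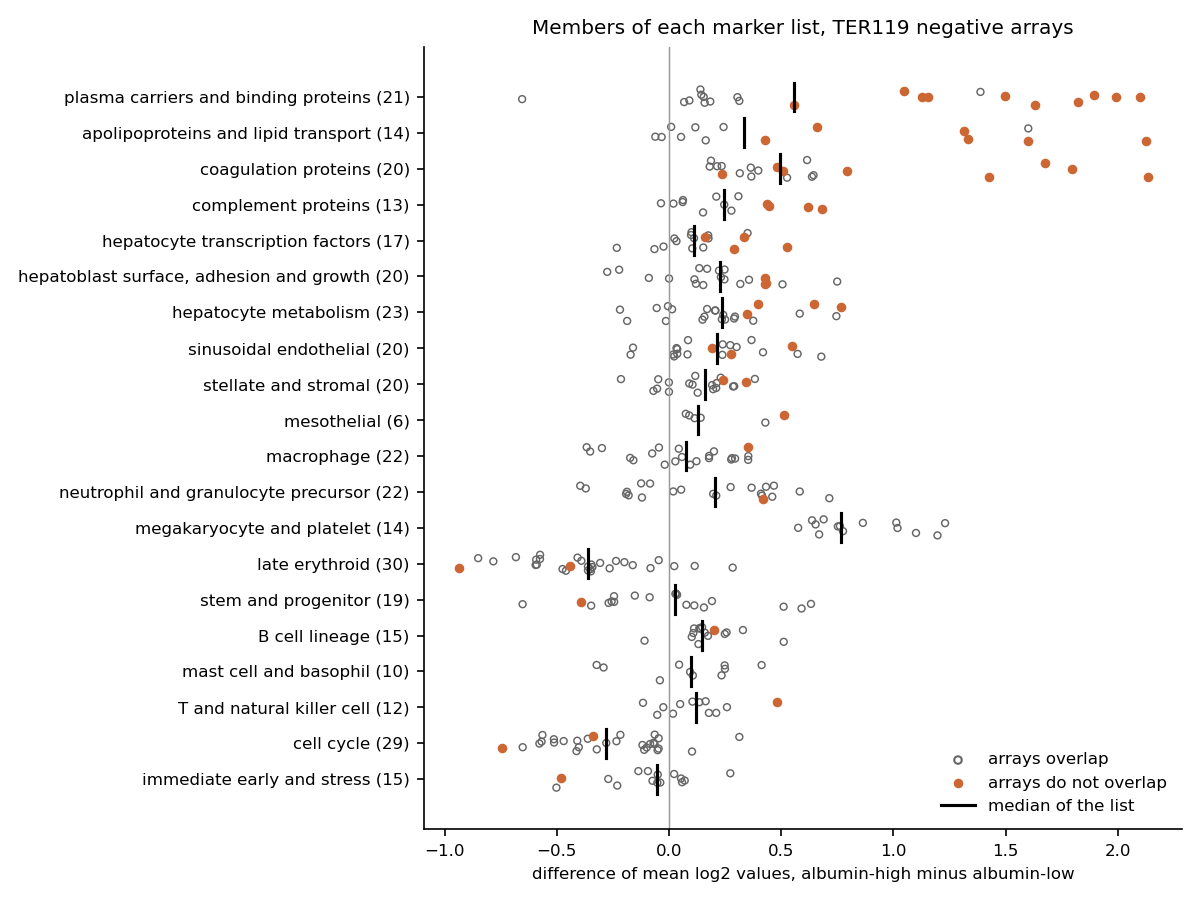
Difference of mean log2 values, albumin-high minus albumin-low TER119 negative arrays (horizontal axis), for each measured gene of 20 marker lists (rows, with the number of genes); black bars are list medians and filled points are genes whose high and low arrays do not overlap. The carrier, apolipoprotein and coagulation lists reach past 2, every megakaryocyte gene is positive but overlapping, and the late erythroid (median -0.36) and cell cycle (median -0.28) lists lie mostly below 0.

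The embryonic globins Hbb-y, Hba-x and Hbb-bh1 were higher on the albumin-high arrays. No other globin is described here, and the late erythroid list below holds none. Embryonic globins are made by primitive red cells, which arise in the yolk sac and circulate through the embryo. Hbb-y, an embryonic beta-type globin, read 9.69, 9.24, 8.41 and 8.78 on the low arrays against 10.50, 11.07, 10.65 and 11.74 on the high arrays, 3.89-fold apart. Hba-x, the embryonic alpha-type zeta globin, read 6.78, 6.69, 6.41 and 6.79 against 7.88, 8.20, 7.66 and 9.47. Hbb-bh1, a further embryonic beta-type globin, read 4.58, 4.2, 4.24 and 4.33 against 5.22, 5.56, 4.96 and 5.80. In all 3 genes every albumin-high array lay above every albumin-low array, and WT replicate 4 was the highest. Hba-x differed by 1.63 with all arrays and by 0.99 without KO-labelled replicate 4 and WT replicates 2 and 4, the arrays that stood apart, which leaves WT replicate 3 alone against the 4 low arrays.

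The late erythroid list, made of membrane, haem and transcription genes of maturing red cells, lay on the other side. Its median difference was -0.36 over 30 genes, 3 of which were positive, and its array means were 8.27, 8.54, 8.76 and 8.48 on the low arrays against 8.33, 8.0, 8.35 and 7.85 on the high arrays. Those means overlapped: KO-labelled replicate 1 lay below KO-labelled replicate 4 and WT replicate 3. Add2, a protein of the red cell membrane skeleton, read 6.88, 7.42, 7.64 and 7.10 against 6.72, 6.10, 6.64 and 5.85, without overlap. Alad, an enzyme of haem synthesis (-0.44), was the other member without overlap, which made 2 of 30 against 2.71% of all genes. Tmod1 (-0.85) and Ank1 (-0.78), both of the membrane skeleton, overlapped. Against these, the transferrin receptor gene Tfrc, which serves iron uptake, differed by 0.02.

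Cell cycle genes were also lower on average, with a median of -0.28 over 29 genes and 2 of them positive. Array means were 9.66, 9.87, 9.92 and 9.83 on the low arrays against 9.57, 9.50, 9.77 and 9.35 on the high arrays. Aurkb, a mitotic kinase, read 9.72, 9.92, 9.85 and 9.88 against 8.93, 9.09, 9.93 and 8.80. It was low on KO-labelled replicate 4 and WT replicates 2 and 4 and at the level of the albumin-low arrays on WT replicate 3, the array that stood with them on the first component. Cdt1, which licenses DNA replication, read 6.62, 6.75, 6.99 and 6.76 against 5.96, 5.93, 6.57 and 5.68, with WT replicate 3 the nearest to the low arrays.

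Megakaryocyte and platelet genes had the largest median difference of any cell type list, 0.77 over 14 genes, all of them positive. In 0 of the 14 was every albumin-high array above every albumin-low array, a count near the 2.92% of all genes. Array means were 9.23, 8.03, 7.53 and 7.96 on the low arrays against 9.07, 8.99, 9.37 and 8.74 on the high arrays, so that KO-labelled replicate 1, albumin-low, was higher than 3 of the 4 high arrays. Gp9, part of the platelet receptor for von Willebrand factor, read 8.53, 7.19, 6.58 and 7.23 against 8.85, 8.40, 8.74 and 8.47. Clec1b, a platelet activation receptor, read 8.85, 7.25, 6.57 and 7.33 against 8.83, 8.76, 8.93 and 8.27. Among the albumin-high arrays WT replicate 4 had the highest Alb and the lowest megakaryocyte mean. The 5 genes of the list that were 2-fold higher were Gp9, Clec1b, Mmrn1, Tubb1 and Gp5.

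**Figure D3:**
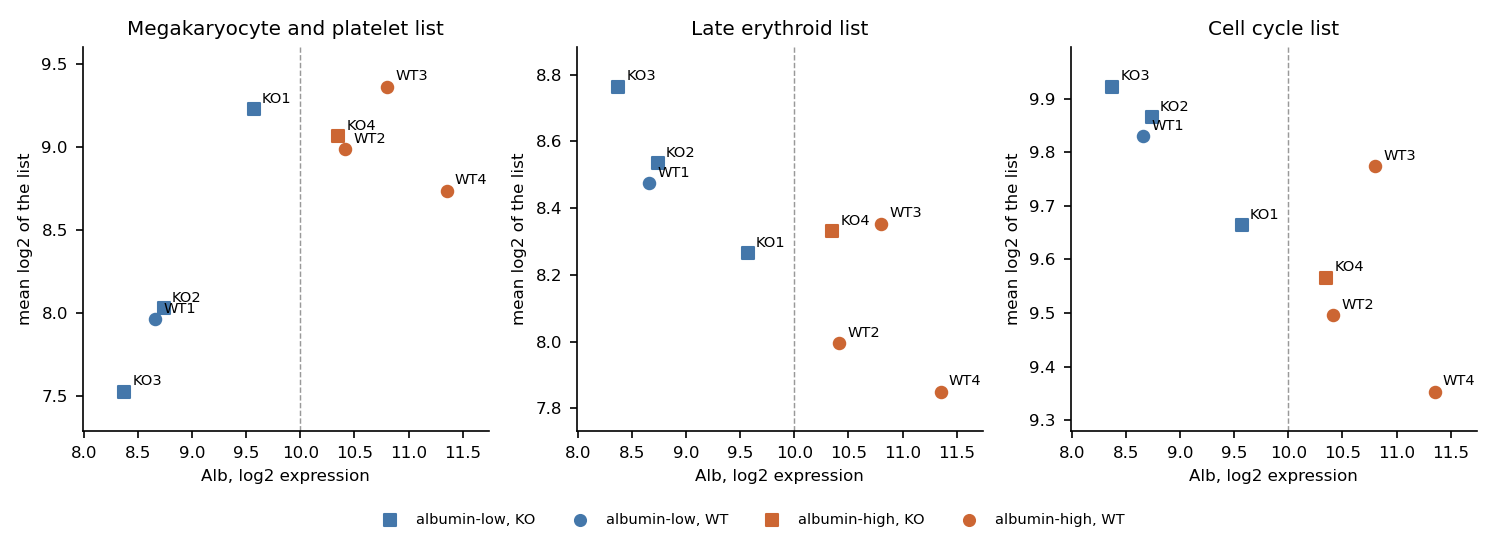
Mean log2 expression of the megakaryocyte, late erythroid and cell cycle lists (vertical axes) against Alb log2 expression (horizontal axis) on the 8 TER119 negative arrays, 1 point each, with a dashed line at 10 between the groups. KO-labelled replicate 1 has a megakaryocyte mean of 9.23 to the left of the line, and WT replicate 3 has a cell cycle mean of 9.77, above the other 3 albumin-high arrays.

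Markers of the other cell types that line or support the fetal liver had small positive medians, above that of the hepatocyte transcription factors (0.11) and below that of the 7 hepatocyte lists together (0.25), with no test of these differences. Sinusoidal endothelial genes had a median of 0.22 over 20 genes. Of these 3 (Stab1, Stab2 and Gpr182) were higher without overlap, against 2.92% of all genes. Array means ran from 5.18 to 5.73 on the low and from 5.50 to 5.76 on the high arrays. Stab2, a scavenger receptor of the sinusoid lining, read 5.74, 5.26, 4.86 and 5.51 against 5.88, 5.91, 5.74 and 6.04. Stellate and stromal genes had a median of 0.16 over 20 genes, and mesothelial genes one of 0.13 over 6. Of the 20 stromal genes 2 (Lum and Cxcl12) were higher without overlap, against the same 2.92%.

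The other blood cell lists had medians between 0.03 and 0.20 over all 8 arrays, and in 3 of them the sign turned within a genotype. Macrophage genes had a median of 0.08 over 22 genes, with 1 of them (Mertk) higher without overlap, a share near the 2.92% of all genes. Neutrophil precursor genes had a median of 0.20, which was 0.16 within WT and -0.11 within KO-labelled arrays. Stem and progenitor genes had a median of 0.03 over 19, which was -0.13 within WT and -0.30 within KO-labelled arrays. T and natural killer cell genes had one of 0.12 over 12, which was 0.15 within WT and -0.13 within KO-labelled arrays. B cell genes had a median of 0.15 over 15, 14 of them positive, and mast cell and basophil genes 0.10 over 10, both positive within each genotype. Array means of the neutrophil list lay between 8.80 and 9.33 on the low and between 8.86 and 9.49 on the high arrays, which overlap. Immediate early genes, which respond within minutes to stimulation or handling, had a median of -0.05 over 15. Ier3 was the one without overlap, lower on the albumin-high arrays, against 2.71% of all genes.

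The 7 TER119 positive arrays were not used to form the groups, and Alb varied among them too, though over 0.225 in place of 2.98 log2 units. They fell into 3 arrays at or below 13.56 (KO-labelled replicate 3 and WT replicates 1 and 3) and 4 at or above 13.68, and neither set is large enough to test alone. A limma slope on Alb with a genotype term, tested over 19937 genes, passed an adjusted p of 0.05 upward for 938 genes (4.7%) and downward for 96 (0.482%). The count moved with single arrays: without WT replicate 1 it passed for 385 genes in all, without WT replicate 4 for 518 and without WT replicate 2 for 662, in place of 1034. Slopes are per 1 log2 unit of Alb, several times the range observed. Alb itself lay close to the top of the scale, which ends at 14.26, and whether its range here was compressed was not tested, so the sizes of the slopes hold only for this probe set. With the mean of Apoa1, Ahsg, Fgb and Serpinc1 as the measure in place of Alb, 1320 genes passed, 956 of them among the 1034.

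Of 127 hepatocyte genes other than Alb, 86 rose with Alb among TER119 positive arrays and 0 fell, with a median slope of 3.29 against -0.12 over all genes tested. The 41 others did not pass. Of all genes 4.7% rose and 0.482% fell. Rises were found for 16 of 20 coagulation, 14 of 20 carrier, 14 of 23 metabolism, 13 of 20 hepatoblast surface, 10 of 14 apolipoprotein, 10 of 13 complement and 9 of 17 transcription factor genes. Otc read 8.30, 8.34 and 7.24 on KO-labelled replicates 1 to 3 and 6.90, 8.36, 7.30 and 8.28 on WT replicates 1 to 4, a slope of 6.98 (SE 0.58, limma adjusted p = 0.000827). Cps1 read 10.83, 10.59 and 9.45, then 9.20, 10.76, 9.37 and 10.36, a slope of 7.24 (SE 0.98, limma adjusted p = 0.00338). For both, the 3 arrays with lower Alb lay below the other 4, without overlap.

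Fibrinogen and apolipoprotein genes rose as well. Limma slopes were 4.64 for Fga (SE 0.52, adjusted p = 0.00215), 3.44 for Fgb (SE 0.57, adjusted p = 0.0074) and 2.85 for Apoa1 (adjusted p = 0.00917). Afp, with a slope of 1.61 (SE 0.48, limma adjusted p = 0.0962), did not pass, nor did Serpina6 with 1.29 (limma adjusted p = 0.182). These were among the genes with the widest differences on the TER119 negative arrays. On TER119 positive arrays Afp lay between 12.73 and 13.09 and Serpina6 between 13.17 and 13.43, also close to the top of the scale.

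Stromal genes rose with Alb in this fraction. Of 20 stellate and stromal genes 12 rose and 0 fell, against 4.7% and 0.482% of all genes. Among the 12 were the collagen genes Col1a1, Col1a2 and Col3a1, the matrix proteoglycans Dcn and Lum and the growth factor Hgf. Col3a1 read 7.65, 7.93 and 6.84 on KO-labelled and 6.20, 7.49, 6.41 and 7.65 on WT arrays, a slope of 6.85 (SE 0.63, limma adjusted p = 0.00107). Of 20 endothelial genes 1 rose (Stab1, slope 3.77), a share near the 4.7% of all genes. The slopes of macrophage, neutrophil, megakaryocyte, B cell, mast cell and T cell genes passed for 0 genes either way. In lists of 10 to 22 genes each, a count of 0 is near the 4.7% and 0.482% of all genes.

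**Figure D4:**
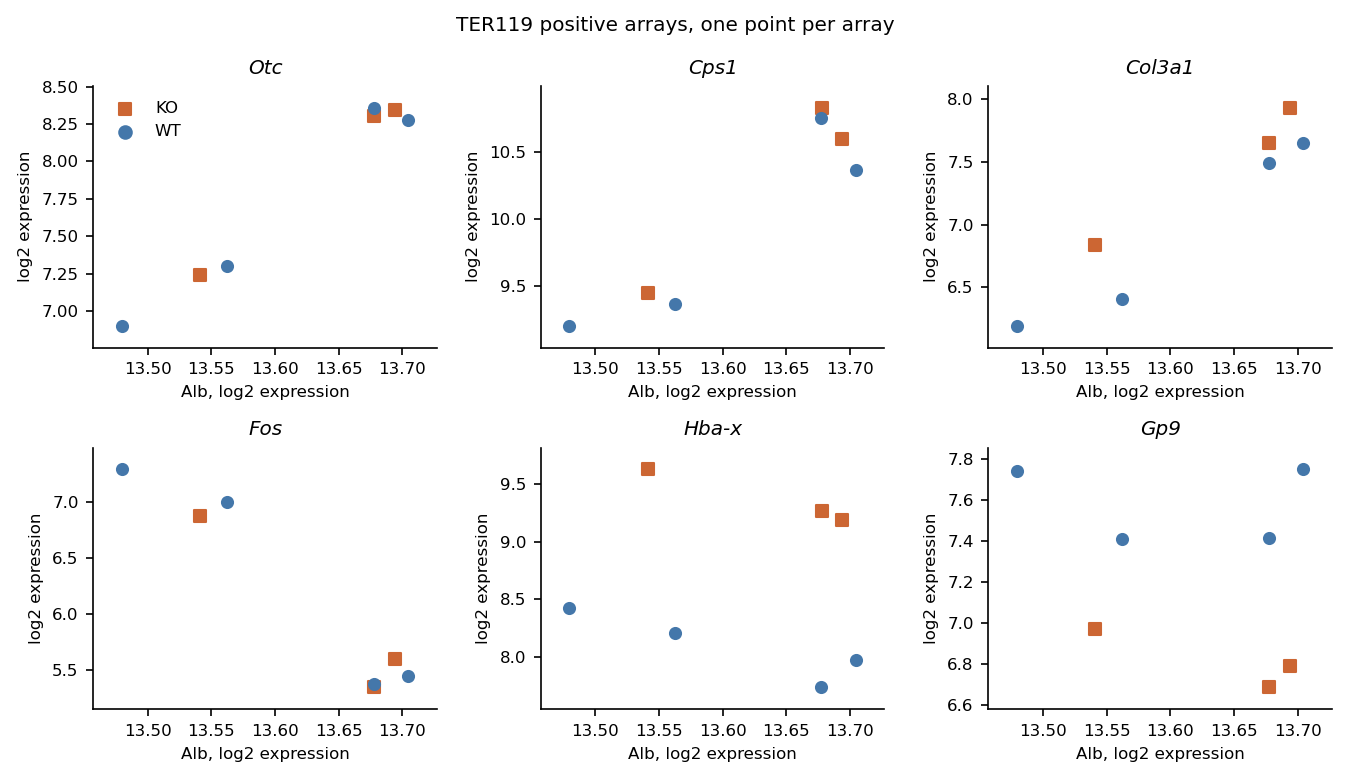
Log2 expression of 6 genes (vertical axes) against Alb log2 expression (horizontal axis) on the 7 TER119 positive arrays, 1 point each; squares are KO-labelled and circles WT. Otc, Cps1 and Col3a1 are lower and Fos is higher on the 3 arrays with Alb at or below 13.56, while Hba-x lies between 9.19 and 9.63 on KO-labelled and between 7.74 and 8.43 on WT arrays.

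Genes that fell with Alb among TER119 positive arrays included the immediate early group, 6 of 15 (Fos, Fosb, Jund, Dusp1, Hspa1a and Btg2), with 0 rising. Of all genes 0.482% fell and 4.7% rose. Fos, a subunit of the AP-1 transcription factor, read 5.35, 5.59 and 6.87 on KO-labelled and 7.29, 5.38, 7.00 and 5.45 on WT arrays, a slope of -9.40 (SE 0.87, limma adjusted p = 0.00114). Fosb read 4.27, 4.12 and 5.64, then 6.55, 4.49, 5.70 and 4.45, a slope of -9.80 (SE 0.52, limma adjusted p = 3.62e-05). The 3 arrays with lower Alb were the 3 high ones for both genes. The part of this group in the slopes of the hepatocyte genes was not tested. Histone genes H3c4 and H1f3 and the microRNA genes Mir15b and Mir16-2 were also among the 8 falling genes with the smallest p. Of 30 late erythroid genes 1 fell, the transcription factor gene Gata1 (slope -2.05, limma adjusted p = 0.0407), and of 19 progenitor genes 1 fell, Myb (slope -3.79, limma adjusted p = 0.0162). Each is a single gene of its list, against the 0.482% of all genes that fell.

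Among the embryonic globins Hba-x fell with Alb in this fraction. It read 9.27, 9.19 and 9.63 on KO-labelled and 8.43, 7.74, 8.21 and 7.98 on WT TER119 positive arrays, a slope of -2.63 with genotype in the model (SE 0.56, limma adjusted p = 0.0224). Hbb-y read 12.04, 12.29 and 12.50 on KO-labelled and 12.05, 11.12, 11.79 and 11.59 on WT arrays, and its slope of -2.80 (SE 0.79, limma adjusted p = 0.0764) did not pass. Hba-x was thus higher on the albumin-high arrays of the negative fraction and fell with Alb in the positive fraction. The difference between the fractions in this relation was not tested. Of the 23 genes 2-fold higher without overlap on the albumin-high arrays, 22 could be tested for a slope, and 16 rose while Hba-x fell, against 4.7% and 0.482% of all genes.

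The KO minus WT comparison within TER119 negative arrays sets these unevenly divided genotypes against each other. Sex went largely with genotype, since every WT array read as male and KO-labelled replicates 1, 3 and 4 as female. Within this fraction, genotype can therefore be told from sex only through KO-labelled replicate 2, which read as male. Alb itself differed by -1.05 (SE 0.45, limma adjusted p = 0.653), which did not pass. Of 19938 genes 15 rose in KO-labelled arrays (0.0752%) and 2 fell (0.01%), 0.0853% in all. Of these 17, 0 were on the hepatocyte lists. With Alb as a covariate 12 genes rose and 0 fell (0.0602%), 9 of them among the 17. With sex as a factor, fitted over all 15 arrays, 7 genes passed, all of them among the 17. The TER119 positive arrays held both sexes in both genotypes. Without the albumin-high arrays, which leaves 3 KO-labelled arrays and 1 WT array assumed to vary like the other groups, 3 rose (0.015%), namely Bcl2l15, Serpinb6a and Apol8. Leaving out KO-labelled replicate 2 gave 11 genes and leaving out KO-labelled replicate 3 or WT replicate 2 gave 8.

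The genes given here, which passed with and without the covariate, differed by genotype on both sides of the division. They were called on these same arrays, and each side sets 1 array of a genotype against 3. The differences on each side therefore describe these genes and do not test them again. Bcl2l15, a member of the BCL2 family by name, read 7.17, 6.95, 7.23 and 5.36 on the low arrays and 7.36, 5.39, 5.64 and 5.49 on the high arrays, so that every KO-labelled array was above every WT array. Its difference was 1.71 without and 1.80 with Alb as a covariate (limma adjusted p = 2.4e-06 and 5.75e-06). Sidt2, a lysosomal membrane protein, read 9.65, 10.20, 10.78 and 8.22 against 9.76, 7.43, 8.21 and 7.44. Its KO minus WT difference was 2.07 within the albumin-high and 1.99 within the albumin-low arrays, and over all arrays its albumin-high minus albumin-low difference was -1.50, between groups that hold 1 and 3 KO-labelled arrays. Crip1, a LIM domain protein, differed by 0.81 without and 0.996 with the covariate (limma adjusted p = 0.0385 and 0.00573).

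Of the 17 genes, 12 had a smaller and 5 a larger difference with the covariate, the median size going from 0.867 to 0.823 and the median SE from 0.121 to 0.135. All 17 kept their sign within the albumin-high and within the albumin-low arrays. This is no separate test: the 17 were called on these same arrays, and each side sets 1 array of a genotype against 3. Those past the threshold without the covariate and not with it were Acp5, Klf8, Rragd, Plek2, Bbs12, Tmem45a2, Arl15 and Mir532. Plek2, a pleckstrin family protein, went from 1.08 to 0.82 (limma adjusted p = 0.13 with the covariate). Cenpq, a centromere protein, went from 0.24 to 0.65 (limma adjusted p = 0.0271) and was added, as were Zfp946 and Zfp677.

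Medians of whole lists also moved with the covariate. For genes that follow Alb a smaller difference is built into these fits, since 1 adjusts for Alb and the other drops arrays chosen by Alb. The medians with the covariate leave Alb itself out. The carrier list had a median KO minus WT difference of -0.58, which was -0.07 with the covariate and -0.01 without the albumin-high arrays. Over the 128 hepatocyte genes the medians were -0.19, -0.04 and -0.01, against -0.02 over all genes in each of the 3 fits. The late erythroid median of 0.24 was 0.03 with the covariate, and the cell cycle median of 0.13 was -0.05. The megakaryocyte median changed sign, from -0.29 to 0.31, and was 0.32 without the albumin-high arrays. The neutrophil median of -0.27 was -0.24 with the covariate and -0.13 without the albumin-high arrays. Of these lists 0 genes passed for KO minus WT in any of the 3 fits, so the medians describe the lists and are not calls.

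**Figure D5:**
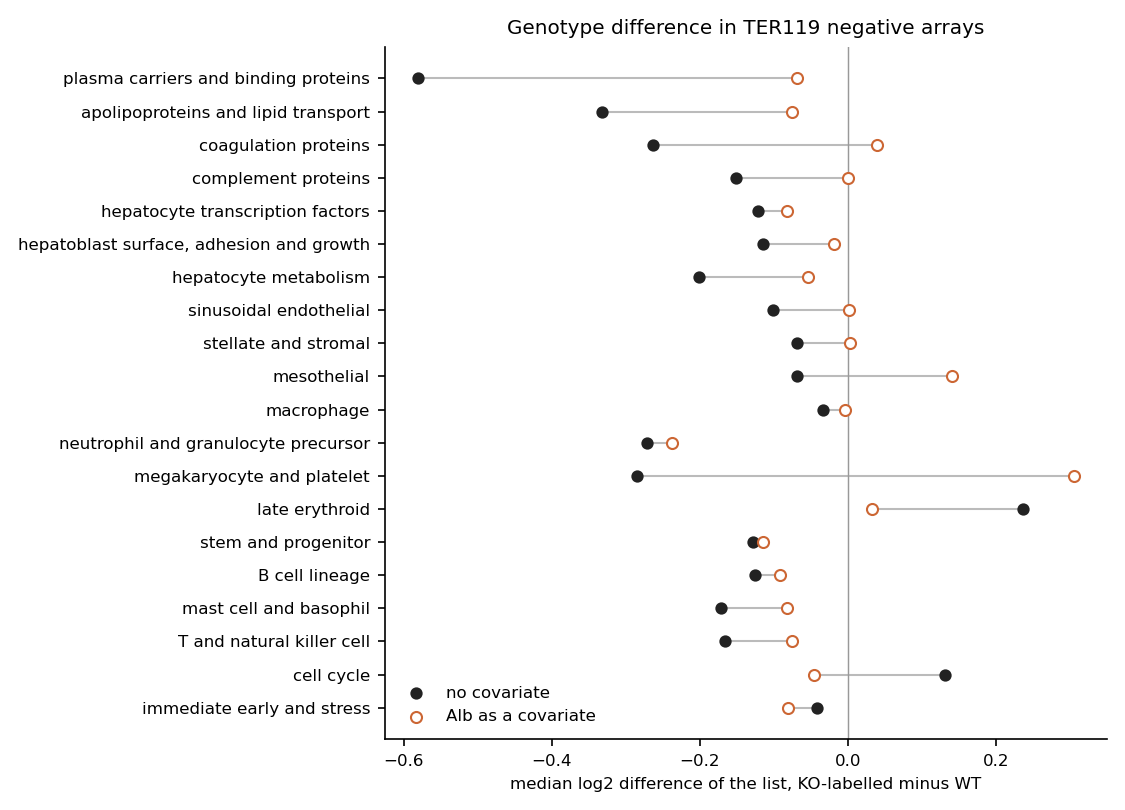
Median log2 difference, KO-labelled minus WT TER119 negative arrays (horizontal axis), for each marker list (rows), without a covariate (filled) and with Alb as a covariate (open). The carrier list goes from -0.58 to -0.07, the late erythroid list from 0.24 to 0.03 and the megakaryocyte list from -0.29 to 0.31, while the neutrophil list goes from -0.27 to -0.24. For genes that follow Alb a smaller difference with the covariate is built into the fit.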

How the data were processed

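Biotin-labelled RNA of 15 sorted fetal liver samples was read on Affymetrix MoGene 1.0 ST arrays, per the labels. The authors deposited 1 log2 value per probe set and array, made with RMA and Partek per the submitters' processing notes (versions not given in the sources used here). Such processing compresses differences between dim probes. Depth has no meaning for arrays, and the number of arrays limits the precision.

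The table held 35399 probe sets, of which 21789 had 1 gene symbol, 1621 several and 11989 are unnamed here. The probe set with the highest mean was kept for each of 19938 genes (999 had several). Names were matched to RefSeq (GRCm38.p6) for 21698 probe sets. Alb had 1 probe set.

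High minus low differences are differences of means, with no test. For KO minus WT, limma 3.58.1 (R 4.3.3) was fitted to all 15 arrays with 1 mean per group (11 residual degrees of freedom), and its covariate fit added the Alb level within TER119 negative arrays. For TER119 positive arrays the slope on Alb was fitted with genotype (4 residual degrees of freedom). Errors are SE for fitted and SD for group values. Tests were 2-sided, with Benjamini-Hochberg adjustment over all genes and a threshold of 0.05. They were tested on simulated data. Alb could not be tested where it was the covariate.

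The members, gene lists and comparisons were chosen with earlier results of these data known. Named were, for each list, the 3 largest differences in the direction of its median; over all genes, the 12 largest positive and negative differences without overlap; the KO minus WT calls; and the 8 smallest p of the slope in each direction. Several of these are summarised by counts. Hbb-bh1, Orm2, Tfrc, Hnf4a, Dlk1, Gata1, Myb, Stab1 and the other genes outside that rule were chosen after their values were seen. Replicate numbers were not taken as pairs. Deviations of same-numbered KO-labelled and WT TER119 negative arrays correlated at -0.27, -0.384, 0.208 and 0.654, which cannot tell whether arrays shared a batch. Between the fractions, same-numbered arrays differed in sex call for KO-labelled replicates 1 and 2 and WT replicates 1 and 4. The alternatives were within-genotype differences, centring, a filter at 6, the mean of all probe sets, sex or replicate as a term, no genotype term and another measure for the slope, other sets of arrays and leaving out each array.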

Additional observations from a re-analysis of the deposited data

Results flagged for a closer look

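Of 134 groups of 4 arrays looked at, 5 held 1 array far from the other 3, and chance gives about 1 in 20 such groups. KO-labelled TER119 negative replicate 1, an albumin-low array, stood apart on 2 lists. Its neutrophil list mean was 9.33 against 8.80 to 8.86 on the other KO-labelled arrays, and its T and natural killer cell list mean was 5.64 against 5.24 to 5.27. KO-labelled replicate 2 had a sex-linked list mean of 7.73 against 5.82 to 6.07, since it was the only one of the 4 with Y-linked expression. Snora41, a small nucleolar RNA gene, read 5.50 on WT replicate 1, the only albumin-low WT array, against 4.25 to 4.38. Mir532, a microRNA gene, read 4.47 on KO-labelled replicate 2 against 4.42 on each of the others. That gap is small and was flagged because the other values were equal.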

How the results depend on the processing

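The division of 4 against 4 arrays is small and each count leans on single arrays. The number of genes at least 2-fold higher (48) lay between 30 and 93 when each array was left out, and the number lower (7) between 4 and 93. The number lower was 11 as a mean of within-genotype differences and 12 with each array centred. Without KO-labelled replicate 4 and WT replicates 2 and 4, chosen after seeing the data, 103 genes were higher, but this sets WT replicate 3 alone against 4 arrays. For named genes 300 differences moved by less than their spread and 7 by more, and 6 of the 7 moved without those 3 arrays. These were Hba-x (0.99 in place of 1.63) and the lower genes Msantd2 (-0.24 in place of -0.97), Pithd1 (-0.15 in place of -0.91), Rpl12 (-0.34 in place of -0.89), Arhgef25 (-0.48 in place of -0.95) and Snord35a (-0.63 in place of -1.08). The other was Fga, 1.80 with its brightest probe set and 1.26 over all its probe sets. For KO minus WT, the 17 genes became 4 with the TER119 negative arrays alone, 7 with sex as a factor, 8 without those 3 arrays and 3 without the albumin-high arrays, and lay between 8 and 24 when each array was left out. With the replicate block 5 genes passed, all among the 17, though replicate numbers were not taken as pairs. Of 4 KO-labelled arrays, 1 correlated best with the WT array of its own number. The 1034 slopes were 930 with no genotype term and 1320 with the other 4 genes as the measure, and lay between 385 and 1016 when each array was left out. Bcl2l15, Serpinb6a and Apol8 passed in each of the 16 alternatives run for KO minus WT. The cause of these movements was not tested.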
